A study of Lepidium sativum with 107 samples.

Results

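The genes described here encode proteins of the small (40S) subunit of the cytosolic ribosome, from RPSa and RPS2 to RPS15. They were followed in garden cress, Lepidium sativum FR14, through seed germination. They were taken by Arabidopsis locus code from a list of 38 loci, and 33 of them had a probe set in the deposited table of 13895. RPS2A, RPS3A, RPS3B, RPS5A and RPS5B were not analysed here. Levels are log2 array values from arrays of 27 groups. There were 4 arrays in each of 26 groups, while the dry part holding cotyledon and non-micropylar endosperm had 3. The value of one probe set is not set against that of another.

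Imbibed seeds lay on wetted filter discs at 24 °C in continuous light, and the labels name no other treatment for any group. Micropylar endosperm, the cap of endosperm over the root tip, and radicle with lower hypocotyl were each sampled at 9 stages: at 1 h, 3 h, 5 h, 7 h with intact testa, 7 h with ruptured testa, 10 h, 13 h, 16 h with intact endosperm and 16 h with ruptured endosperm. Non-micropylar endosperm and cotyledons were each sampled at 3 stages, 3 h, 7 h and 13 h. Unimbibed seed was sampled whole, as a part with radicle and cap, and as a part with cotyledon and non-micropylar endosperm, so that each dry part is a mixture of embryo and endosperm. Each sample of an imbibed tissue pooled 100 organs (50 for cotyledons), and the organs of single seeds were not kept apart.

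The small subunit binds messenger RNA and reads its codons, and each of its proteins is encoded in plants by a small family of nearly identical genes. The genes for cytosolic ribosomal proteins are known to be expressed together, most strongly in growing and dividing cells. Dry seeds carry stored ribosomes and stored messenger RNA, and germination depends on translation. In these whole-tissue samples, fewer cells of a type and less RNA per cell cannot be told apart.

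The tissue labels were checked against marker genes. EPR1, an endosperm extensin-like gene, averaged 9.42 in micropylar endosperm at 1 h and 8.08 in non-micropylar endosperm at 3 h, against 4.57 in radicle at 1 h and 4.05 in cotyledons at 3 h. EXPA2, an endosperm expansin, averaged 10.05 in micropylar endosperm at 7 h with intact testa, against 3.47 in radicle. The third endosperm marker measured, IKU2, a receptor kinase gene of endosperm growth in developing seeds, went the other way. It averaged 3.43, close to background, in micropylar endosperm at 7 h with intact testa, against 3.84 in radicle, a difference of −0.41 that passed as lower, and at 10 h the difference was −0.37. Between non-micropylar endosperm and cotyledons at 7 h its difference was −0.52. PIN2, a root auxin transporter, averaged 6.61 in radicle at 13 h and 3.45, close to background, in radicle at 1 h. The root markers did not separate the tissues at 1 h. The summed level of 8 of them ran from 29.4 to 30.7 in radicle, against 29.6 to 30.9 in micropylar endosperm. At 13 h it ran from 34.7 to 36.1 in radicle, against 30.5 to 32.9 in micropylar endosperm. PIN2 also averaged 4.66 in micropylar endosperm at 7 h with ruptured testa, against 3.92 with intact testa, and the summed level of 8 root markers there ran from 29.6 to 35.4, against 28.1 to 31.3 with intact testa. The part of these markers in the values of that group was not tested.

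**Figure D1:**
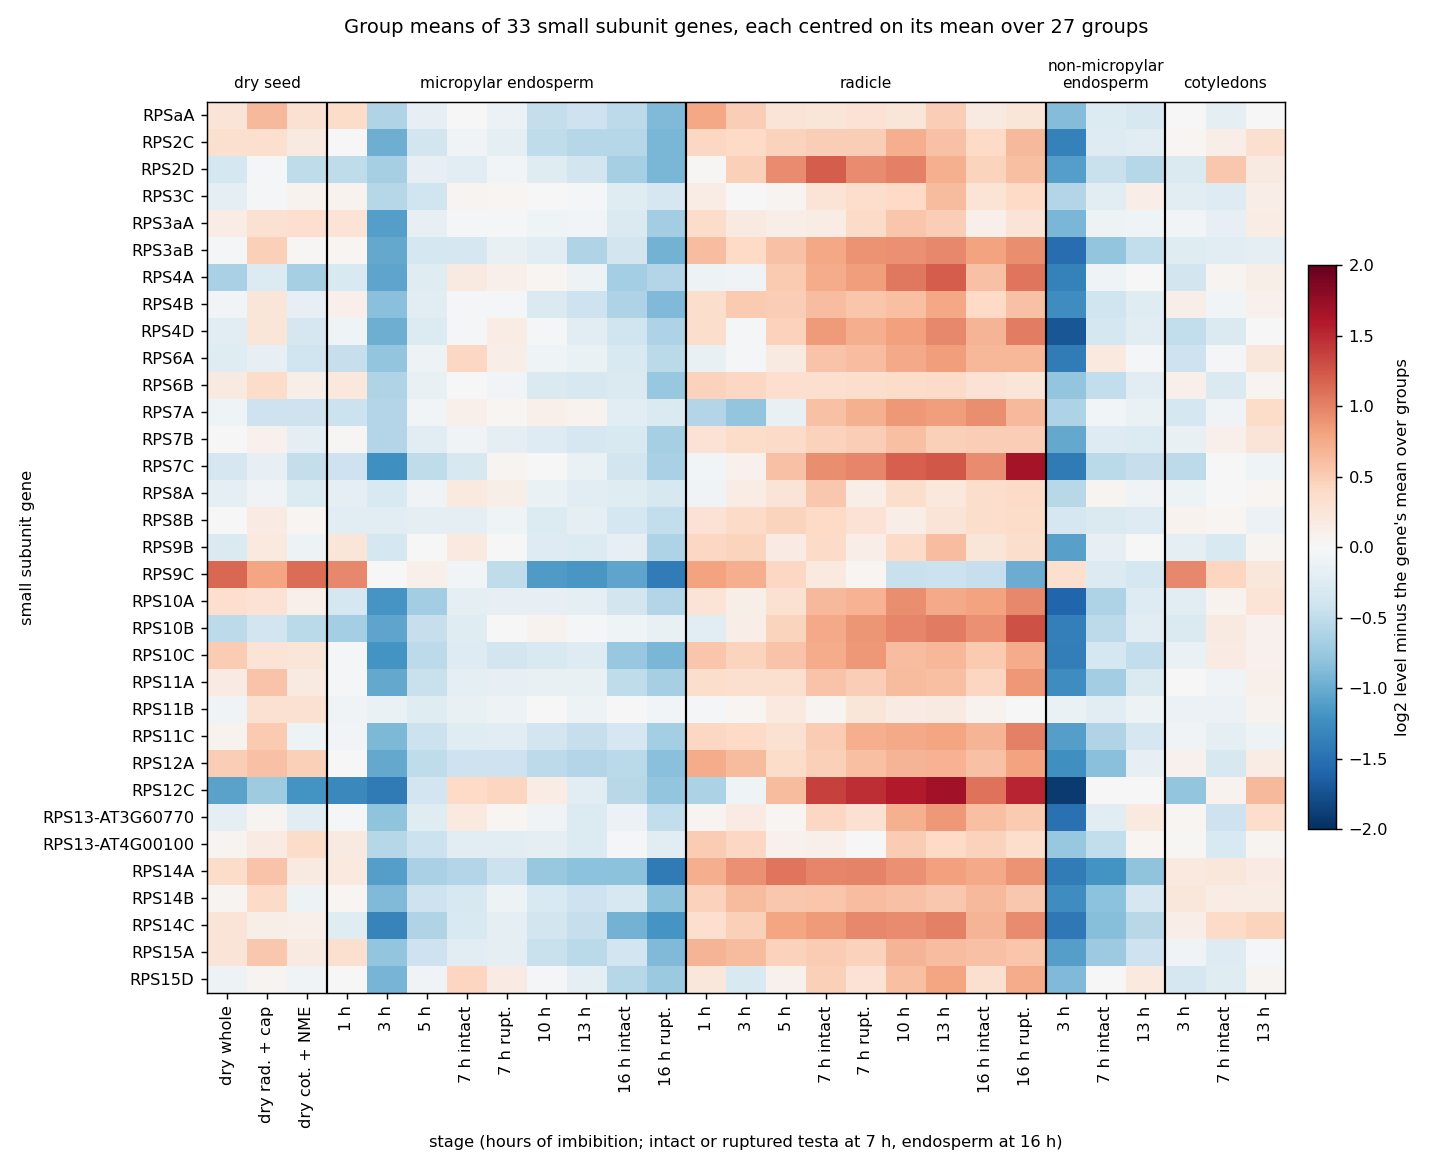
Heat map of the 33 small subunit genes (rows) in the 27 groups (columns, ordered by tissue and hours of imbibition, dry seed first); the colour is the group mean of the log2 level minus the gene's mean over the groups. Most rows are blue in both endosperm tissues at 3 h and red in radicle, RPS9C is red in dry and early samples and blue late, and RPS12C has the widest range, 3.59.

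Taken per array, the median of the 33 genes, each centred on its own mean over groups, was lowest in non-micropylar endosperm at 3 h (−1.20 ± 0.16, SD, n = 4) and in micropylar endosperm at 3 h (−0.84 ± 0.20, n = 4). It was highest in radicle at 13 h (0.70 ± 0.08, n = 4). The group mean of a gene was lowest of all 27 groups in non-micropylar endosperm at 3 h for 25 of the 33 genes, and highest in radicle at 13 h for 10. The profiles of most genes ran alike: Pearson's r with the median of the other genes over 27 groups had a median of 0.8885 and reached 0.975, for RPS3aB, as a description over groups that share arrays and processing. RPS9C stood apart at 0.10, followed by RPS11B (0.60), RPS7A (0.60) and RPS12C (0.76). Neither the share of all probe sets with these lowest and highest groups nor their correlations are given here. These counts and r values therefore have no background.

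**Figure D2:**
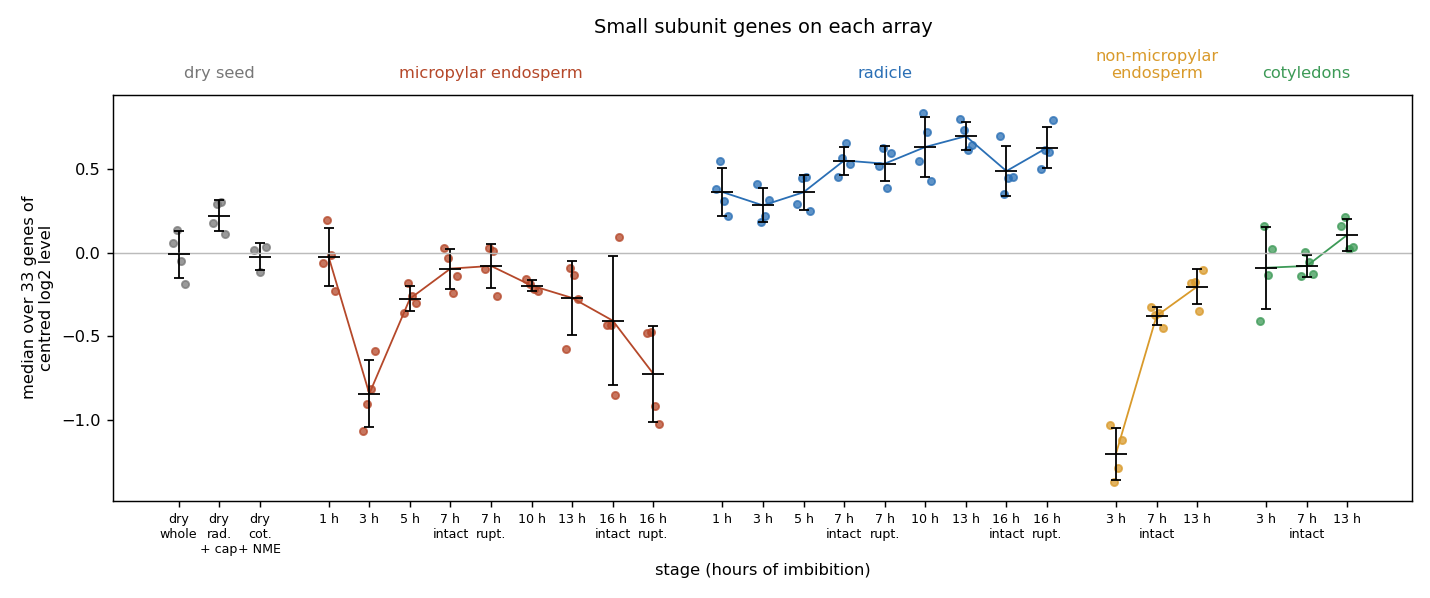
Median over the 33 small subunit genes of the centred log2 level (vertical axis) on each array, by tissue and stage (horizontal axis, hours of imbibition); points are arrays, bars the group mean and SD. The 4 arrays of micropylar endosperm at 3 h lie between −1.07 and −0.59 and those of non-micropylar endosperm at 3 h between −1.37 and −1.03, below the other stages of the same tissue except micropylar endosperm at 16 h.

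From 1 h to 3 h of imbibition the small subunit genes fell in the micropylar endosperm. In the fit of all arrays (limma, Benjamini-Hochberg over all probe sets, adjusted p under 0.05), 25 of 33 were lower at 3 h than at 1 h, beside 17.6% of all probe sets, with a median of −0.84 on the log2 scale against −0.04 over all probe sets. RPS14A (AT2G36160), one of 3 genes for a platform protein close to the path of the outgoing message, measured 7.58, 7.66, 7.89 and 8.25 at 3 h, against 9.15, 9.37, 9.27 and 8.79 at 1 h. All arrays at 3 h lay below all arrays at 1 h. The change was −1.30 ± 0.23 (limma SE, adjusted p = 2.88e-06).

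RPS3aA (AT3G04840), for another platform protein, measured 3.64, 2.92, 4.02 and 3.86 at 3 h, against 4.96, 5.12, 5.21 and 4.61 at 1 h, again without overlap, and fell by 1.37 ± 0.17 (adjusted p = 1.24e-10). One of its arrays at 3 h was under 3.59, the level below which a value is not clearly above background here (the 25th percentile of all group means). RPS15A (AT1G04270), for a protein of the subunit head, measured 8.36, 8.47, 8.41 and 9.06 at 3 h, against 9.58, 9.95, 9.86 and 9.36 at 1 h. The groups did not overlap, although the fourth array at 3 h was well above the other three. Its change was −1.11 ± 0.15 (adjusted p = 2.07e-09).

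The other genes with the largest falls were RPS10C, for another head protein (−1.16 ± 0.21), RPS14C (−1.10 ± 0.22) and RPS3aB (−1.07 ± 0.19). RPSaA (AT1G72370), for a protein related to the laminin receptor precursor of animals, fell by 0.97 ± 0.16, RPS11A by 1.00 ± 0.17, RPS6B by 0.82 ± 0.13 and RPS13-AT4G00100 by 0.75 ± 0.14. The change of RPS6B depended on the scaling, with −0.25 under quantile normalization (adjusted p = 0.273). RPS13-AT4G00100 is the gene whose loss gives pointed first leaves in Arabidopsis. RPS6 is the protein of the subunit that S6 kinase phosphorylates downstream of the TOR kinase, and its other gene, RPS6A (AT4G31700), had a change of −0.33 ± 0.16 that did not pass. RPS10B (−0.38 ± 0.17) did not pass either. The remaining genes that did not pass were RPS2D, RPS7A, RPS12C, RPS8A, RPS11B and RPS8B, with changes between −0.16 and 0.01. RPS7A measured 6.19, 6.31, 6.35 and 5.88 at 3 h, against 6.40, 6.50, 6.39 and 6.06 at 1 h, so its groups overlapped.

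In radicle from 1 h to 3 h the median change of the list was −0.01, and 1 of 33 genes passed as lower, beside 12.9% of all probe sets. That gene was RPS15D (−0.53 ± 0.17, adjusted p = 0.0167); the count was 0 without array 2 of 1 h or array 3 of 3 h, and 2 without array 4 of 1 h or array 1 or 4 of 3 h. RPS14A measured 10.12, 9.72, 9.82 and 9.80 in radicle at 3 h, against 9.75, 9.82, 9.50 and 9.63 at 1 h, with overlap. The change itself differed between the tissues: it was more negative in micropylar endosperm than in radicle for 21 of 33 genes, beside 4.87% of all probe sets, with a median difference of −0.77. This comparison was added after the values had been seen. RPS14A had the largest difference (−1.49 ± 0.33, adjusted p = 0.00093), followed by RPS14C (−1.23 ± 0.32) and RPS3aA (−1.17 ± 0.24), and 20 of the 25 genes that fell in micropylar endosperm were among the 21.

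**Figure D3:**
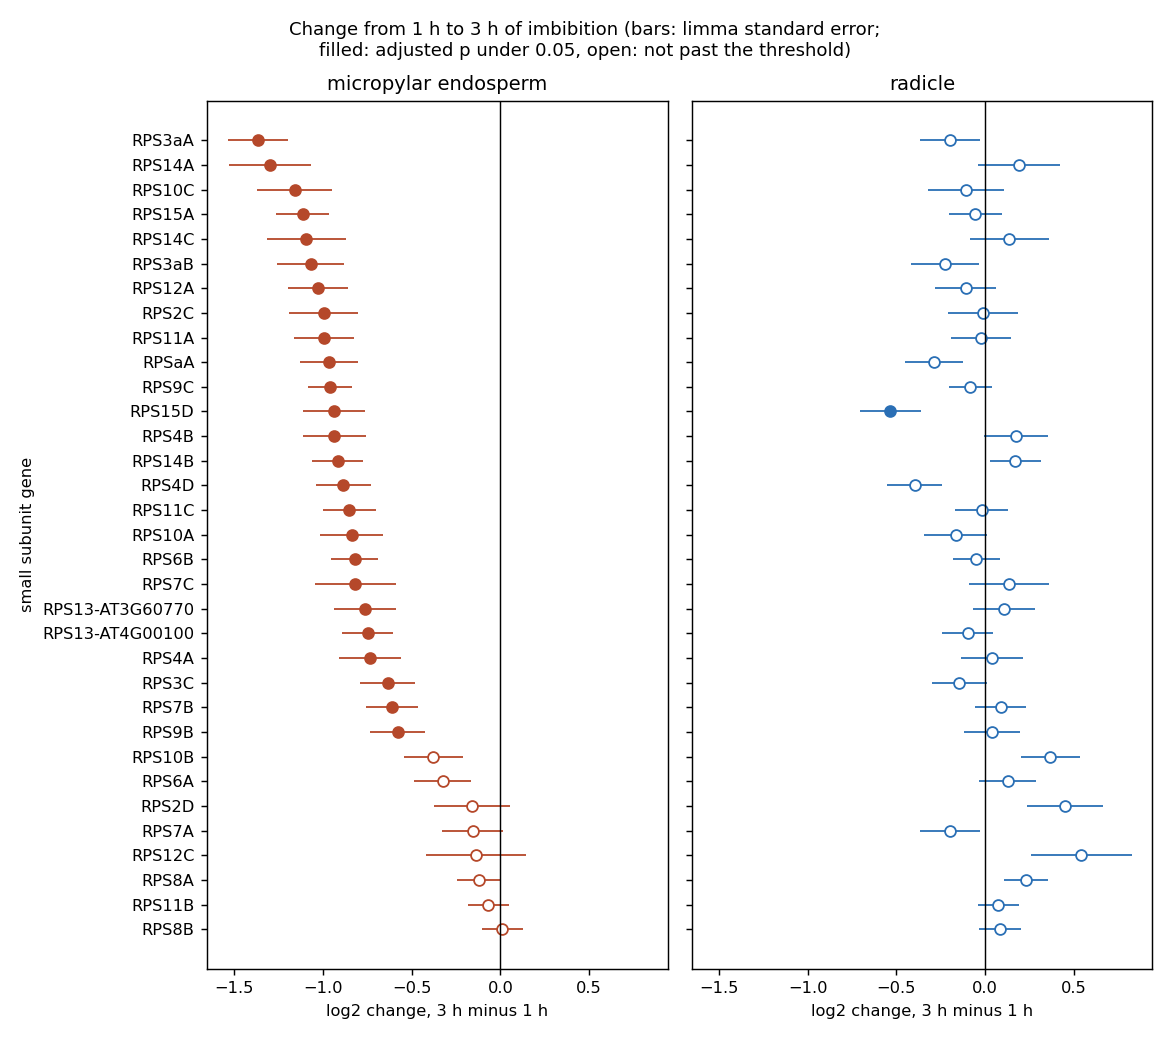
Log2 change from 1 h to 3 h (horizontal axes, bars are the limma standard error) of each small subunit gene (rows) in micropylar endosperm (left) and radicle (right); filled points have an adjusted p under 0.05. In micropylar endosperm 25 genes lie left of 0 with filled points, and in radicle 1 does.

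Between 3 h and 5 h the list rose again in micropylar endosperm, where 19 of 33 genes passed as higher at 5 h, beside 3.01% of all probe sets, with a median of 0.51. Of the 25 genes that fell to 3 h, 15 were among these 19. RPS12C (AT2G32060), for a head protein, had the largest rise (1.03 ± 0.28, adjusted p = 0.013), followed by RPS3aA (0.93 ± 0.17), RPS15D (0.85 ± 0.17) and RPS4A (0.81 ± 0.17). The count rested on single arrays: it was 5 without array 1 of 3 h or array 2 of 5 h, and 10 without array 2 of 3 h, array 3 of 5 h or array 4 of 5 h. In radicle 3 genes rose from 3 h to 5 h, beside 3.56% of all probe sets: RPS7A (0.63 ± 0.17), RPS4A (0.58 ± 0.17) and RPS4D (0.50 ± 0.16). That count was 0 without array 3 of 5 h, and 1 without array 3 of 3 h or array 2 of 5 h. RPS4D did not pass under quantile normalization (0.41, adjusted p = 0.0713). The difference between the tissues in this change passed for RPS3aA alone (0.98 ± 0.24, adjusted p = 0.033), beside 0.245% of all probe sets, in a comparison added after the values had been seen, and for 0 to 2 genes when each array was left out in turn. It was 0 without array 1 or 2 of 3 h or array 2, 3 or 4 of 5 h in micropylar endosperm, or array 1 of 3 h or array 2 or 3 of 5 h in radicle, and 2 without array 4 of micropylar endosperm at 3 h.

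The non-micropylar endosperm was first sampled at 3 h. Against the dry seed part with cotyledon and non-micropylar endosperm, 30 of 33 genes were lower in non-micropylar endosperm at 3 h, beside 21.6% of all probe sets, with a median of −1.01 against −0.07 over all probe sets. RPS10A (AT4G25740) measured 6.57, 6.29, 6.58 and 6.84 at 3 h, against 8.44, 8.16 and 8.19 in the dry part, a difference of −1.69 ± 0.19 (adjusted p = 3.5e-12). RPS12A (AT1G15930) measured 5.57, 5.01, 5.80 and 5.67 at 3 h, against 7.44, 7.03 and 7.20 in the dry part, a difference of −1.71 ± 0.19 (adjusted p = 5.44e-13). Neither gene's groups overlapped. Cotyledons at 3 h against the same dry part gave 1 passing gene, RPS11B (−0.43 ± 0.13, under the brightness limit in 22 of 27 groups), beside 8.78% of all probe sets and with a median of −0.04, and 0 without array 3 of cotyledons at 3 h. Since the dry part mixes both tissues, the tissue and the hours of imbibition cannot be told apart in these differences.

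From 3 h to 13 h the genes rose in non-micropylar endosperm, 30 of 33 passing as higher, beside 19.4% of all probe sets, and 1 as lower, beside 19.9%. The median was 0.89 against 0.00 over all probe sets. RPS13-AT3G60770, for a protein of the subunit body, measured 8.46, 8.35, 8.53 and 8.60 at 13 h, against 6.90, 6.37, 6.93 and 6.97 at 3 h, without overlap, a rise of 1.69 ± 0.17 (adjusted p = 4.5e-14). The other large rises were those of RPS12C (1.92 ± 0.28), RPS4D (1.51 ± 0.16), RPS6A (1.38 ± 0.16), RPS4A (1.36 ± 0.17) and RPS10A (1.32 ± 0.18). By 7 h 25 genes were already higher than at 3 h, beside 16.0% of all probe sets, with a median of 0.67, and RPS9C was lower (15.9% of all probe sets). From 7 h to 13 h 3 genes rose, beside 10.3% of all probe sets: RPS12A (0.67 ± 0.17), RPS13-AT4G00100 (0.53 ± 0.14) and RPS14B (0.48 ± 0.14), and the count was 5 without array 3 of 13 h. RPS14B did not pass under quantile normalization (0.19, adjusted p = 0.352). The steps at 7 h in this tissue were added after the values had been seen.

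Markers of cotyledon and shoot moved in the same tissue, with 1 of 5, AS1, passing as higher from 7 h to 13 h. The summed level of the 5 in non-micropylar endosperm ran from 16.65 to 18.08 at 3 h, from 17.28 to 17.61 at 7 h and from 18.76 to 21.51 at 13 h. AS1, for a MYB factor of leaf formation, averaged 4.36 at 3 h, 4.26 at 7 h and 6.12 at 13 h, with an SD of 0.93 at 13 h. YAB3 and KAN1 stayed under the brightness limit at these stages. Of the 5 markers, 4 averaged under the brightness limit at 3 h and 4 at 7 h, so the sum could show little at these stages. The part of these markers in the values at 7 h and at 13 h was not tested.

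In cotyledons from 3 h to 13 h, 7 genes rose, beside 12.9% of all probe sets, and 1 fell, beside 12.5%, with a median of 0.22. The risers were RPS12C (1.44 ± 0.28), RPS7A (0.72 ± 0.17), RPS6A (0.65 ± 0.16), RPS10A (0.49 ± 0.18), RPS4D (0.49 ± 0.16), RPS4A (0.48 ± 0.17) and RPS7B (0.39 ± 0.15). The count was 4 without array 1 of 3 h, and 5 without array 3 of 3 h or array 2 of 13 h. RPS10A did not pass under array weights (0.45, adjusted p = 0.0707) and was 0.31 without array 2 of 13 h, and RPS4A was 0.30 without array 1 of 3 h; neither of these left-out values passed. The rise was larger in non-micropylar endosperm than in cotyledons for 18 of 33 genes, beside 6.93% of all probe sets, with a median difference of 0.67. RPS13-AT3G60770 had the largest (1.39 ± 0.25, adjusted p = 8.99e-06), followed by RPS4B (1.04 ± 0.25), RPS4D (1.02 ± 0.22) and RPS12A (1.01 ± 0.24).

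Over the whole course the small subunit genes were lower in endosperm than in embryo. Averaged over the 9 shared stages, all 33 were lower in micropylar endosperm than in radicle, beside 37.2% of all probe sets, with a median difference of −0.90 and a range of −1.60 (RPS14A) to −0.19 (RPS11B). Stage by stage, in comparisons added after the values had been seen, the count was 7 at 1 h (6.32% of all probe sets were lower), 31 at 3 h (14.4%) and 25 at 5 h (10.1%). At 7 h it was 22 with intact testa (9.76%) and 25 with ruptured testa (13.7%). At 10 h it was 31 (14.3%), at 13 h 32 (14.9%), and at 16 h 31 with intact endosperm (14.6%) and 32 with ruptured endosperm (18.6%). At 1 h the count was 2 without array 4 of micropylar endosperm, 3 without array 2 of radicle, and 4 without array 1 or 3 of micropylar endosperm or array 1 of radicle. RPS6B was among the lower genes at 5 h and at 7 h with ruptured testa, but under quantile normalization its differences there were 0.11 and 0.008, and neither passed.

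Seed coat markers moved with the micropylar endosperm at the later of these stages. The summed level of the 4 measured ran from 17.0 to 17.8 in micropylar endosperm at 7 h with intact testa, against 16.9 to 17.9 in radicle. At 10 h it ran from 21.6 to 22.7 in micropylar endosperm, against 17.6 to 19.0 in radicle, and at 13 h from 21.5 to 21.9, against 18.2 to 18.6. At 16 h it ran from 18.25 to 22.31 with intact endosperm, against 18.25 to 18.92 in radicle, and from 19.96 to 21.26 with ruptured endosperm, against 18.11 to 19.42. Most of the difference at 10 h came from TT4, chalcone synthase of the flavonoid pathway, which averaged 7.62 in micropylar endosperm at 10 h, against 4.05 in radicle. TT10, a laccase gene of seed coat browning, averaged 3.63 in micropylar endosperm at 10 h, against 3.59 in radicle. At 3 h, where 31 genes were lower, the summed level ran from 17.5 to 18.1 in micropylar endosperm, against 17.3 to 17.7 in radicle. The part of these markers in the tissue differences at 10 h and later was not tested.

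RPS14A measured 7.81, 7.85, 7.40 and 7.05 in micropylar endosperm at 16 h with ruptured endosperm, against 9.74, 9.71, 9.87 and 10.04 in radicle. Every endosperm array was below every radicle array, and the difference was −2.31 ± 0.23 (adjusted p = 1.96e-14). RPS12C (−2.31 ± 0.28), RPS7C (−2.30 ± 0.23), RPS14C (−2.13 ± 0.22) and RPS3aB (−1.88 ± 0.19) differed nearly as much at that stage. RPS9C (−0.41 ± 0.12, with overlapping groups) and RPS13-AT4G00100 (−0.58 ± 0.14) differed least among the genes that passed.

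Non-micropylar endosperm was lower than cotyledons for 30 of 33 genes averaged over 3 stages, beside 23.7% of all probe sets, with a median of −0.59. RPS14A (−1.32 ± 0.13), RPS14C (−1.26 ± 0.13) and RPS14B (−0.98 ± 0.08), the 3 genes for RPS14, had the largest differences. The count was 30 at 3 h (13.8% of all probe sets), 15 at 7 h (17.0%) and 10 at 13 h (13.4%), and 9 of these 10 were among the 30; without array 2 of cotyledons at 13 h or array 2 of non-micropylar endosperm at 13 h the last count was 6. Within the embryo, radicle was higher than cotyledons for 30 of 33 genes, beside 18.4% of all probe sets, with a median of 0.49. RPS12C (1.01 ± 0.16), RPS7C (0.95 ± 0.13), RPS3aB (0.92 ± 0.11) and RPS4D (0.85 ± 0.09) led. RPS9C was lower in radicle (−0.37 ± 0.07, adjusted p = 7.23e-06), beside 18.4%.

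Between the endosperm tissues 5 genes were higher in micropylar than in non-micropylar endosperm, beside 6.46% of all probe sets, and RPS9C was lower (−0.31 ± 0.07), beside 7.18%. RPS4D (0.35 ± 0.09) led the 5, and the count of passing genes was 3 without array 4 of micropylar endosperm at 3 h, array 2 of non-micropylar endosperm at 3 h or array 3 of non-micropylar endosperm at 13 h.

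**Figure D4:**
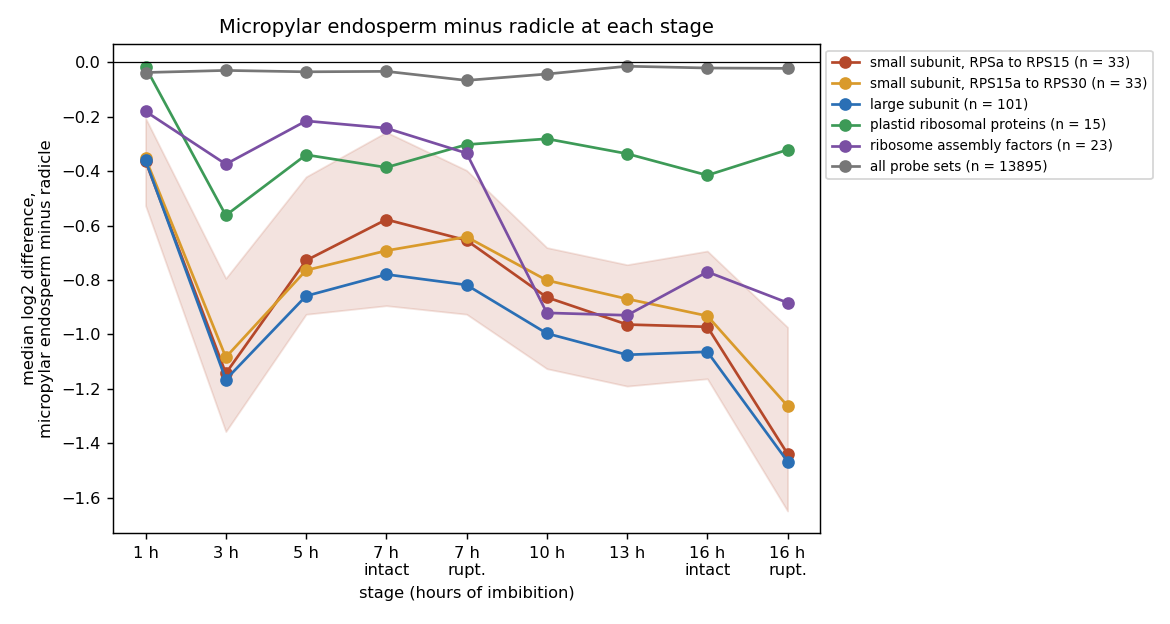
Median log2 difference of micropylar endosperm minus radicle (vertical axis) at each stage (horizontal axis) for lists of ribosome genes and for all probe sets; the band is the interquartile range of the 33 small subunit genes. The 3 lists of cytosolic ribosomal proteins run close together, at −1.14, −1.08 and −1.17 at 3 h, while the median of all probe sets stays between −0.07 and −0.01.

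The other ribosome genes were counted in the same way. From 1 h to 3 h in micropylar endosperm, 25 of 33 genes for RPS15a to RPS30 fell (median −0.64), and 71 of 101 large subunit genes fell while 3 rose (median −0.72), beside 17.6% of all probe sets lower and 14.8% higher. Of 23 ribosome assembly genes 9 fell and 1 rose (median −0.29), and 5 of 18 translation initiation genes fell and 2 rose (median −0.24), the last nearer to the share of all probe sets. Radicle exceeded cotyledons for 27 of 33 genes for RPS15a to RPS30 and for 88 of 101 large subunit genes, beside 18.4% of all probe sets higher and 18.4% lower. Of 15 plastid ribosomal protein genes 14 were lower in radicle (median −1.33).

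From 1 h to 7 h with intact testa, some of the genes rose and others fell, as did many of all probe sets. In radicle 9 rose and 3 fell, beside 16.6% of all probe sets higher and 23.0% lower. RPS12C measured 7.13, 7.37, 7.56 and 7.36 in radicle at 7 h, against 5.32, 5.73, 4.72 and 5.67 at 1 h, a rise of 2.00 ± 0.28 (adjusted p = 8.73e-09). RPS2D (AT3G57490), for a protein at the message entry, measured 6.05, 6.19, 6.46 and 5.54 at 7 h, against 5.04, 5.09, 4.67 and 4.68 at 1 h, a rise of 1.19 ± 0.21 (adjusted p = 3.34e-06). In both genes every array at 7 h was above every array at 1 h.

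RPS7A (AT1G48830) measured 7.09, 7.44, 7.56 and 7.30 in radicle at 7 h, against 6.40, 6.30, 5.79 and 6.23 at 1 h, a rise of 1.17 ± 0.17 (adjusted p = 2.08e-08). RPS7C (AT5G16130) measured 7.36, 7.76, 7.87 and 7.24 at 7 h, against 7.01, 6.71, 6.37 and 6.21 at 1 h, a rise of 0.99 ± 0.23 (adjusted p = 0.000248). Both encode a platform protein, and neither pair of groups overlapped. RPS10B (AT5G41520) measured 7.69, 7.88, 7.88 and 7.53 at 7 h, against 6.72, 6.86, 6.60 and 6.82 at 1 h, a rise of 0.99 ± 0.17 (adjusted p = 7.37e-07). RPS4A (0.85 ± 0.17) and RPS6A (0.71 ± 0.16) rose as well. RPSaA fell instead, with 10.73, 10.39, 10.57 and 10.80 at 7 h, against 11.12, 11.31, 11.19 and 11.02 at 1 h, without overlap (−0.53 ± 0.16, adjusted p = 0.00596). RPS9C (−0.61 ± 0.12) and RPS13-AT4G00100 (−0.40 ± 0.14) were the other genes that fell.

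In micropylar endosperm over the same hours 7 of 33 genes rose and 6 fell, beside 16.7% of all probe sets higher and 21.5% lower. Both counts were near these shares. Of the 7 risers, 6 also rose in radicle. RPS12C measured 6.41, 6.64, 6.29 and 6.26 at 7 h, against 4.59, 5.18, 4.88 and 4.19 at 1 h, without overlap, a rise of 1.69 ± 0.28 (adjusted p = 5.98e-07). RPS6A measured 8.98, 9.01, 8.57 and 8.76 at 7 h, against 7.89, 8.08, 8.09 and 7.80 at 1 h, also without overlap, a rise of 0.87 ± 0.16 (adjusted p = 4.68e-06). RPS7A (0.53 ± 0.17), RPS4A (0.50 ± 0.17), RPS10B (0.45 ± 0.17) and RPS15D (0.42 ± 0.17) were the other risers named by size. The falls were led by RPS9C (−1.02 ± 0.12) and RPS14A (−0.78 ± 0.23), followed by RPS15A (−0.55 ± 0.15), RPS12A (−0.43 ± 0.17), RPS13-AT4G00100 (−0.40 ± 0.14) and RPS14B (−0.36 ± 0.14). Under quantile normalization RPS14B did not pass (−0.29, adjusted p = 0.0821), nor did RPS15D under centring on brighter probe sets (0.39, adjusted p = 0.0563). Without array 2 of 1 h the count was 8 in place of 13. The change differed between micropylar endosperm and radicle for RPS14A alone (−1.03 ± 0.33, adjusted p = 0.0353), beside 4.00% of all probe sets. That count was 0 without array 1 or 3 of 1 h or array 3 or 4 of 7 h in micropylar endosperm, or array 3 or 4 of 1 h or array 2 or 3 of 7 h in radicle. It was 2 without array 4 of micropylar endosperm or array 2 of radicle at 1 h, and 3 without array 1 of radicle at 1 h or array 4 of radicle at 7 h.

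For many pairs of genes for one protein the measured changes differed in size. There were 23 pairs of genes for the same protein, in 13 proteins. An exact two-sided permutation test on the per-array difference of the pair (70 arrangements, smallest possible p 0.0286) was at that smallest p for 12 pairs in micropylar endosperm and 10 in radicle from 1 h to 7 h, but after Benjamini-Hochberg adjustment over the 23 pairs no pair was under 0.05 (smallest 0.0548 in micropylar endosperm and 0.0657 in radicle). An adjusted p under 0.05 would have needed most of the 23 pairs at the smallest p, so the adjusted permutation test could decide little. A second test, chosen after the permutation result had been seen, added the pair differences as rows to the limma fit and adjusted over all 13918 rows. It passed 12 pairs, from 9 proteins, in micropylar endosperm and 14 pairs, from 11 proteins, in radicle. The share among pairs of genes for different proteins is not given here, so these counts have no background.

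From 1 h to 7 h the genes for RPS12 were farthest apart in both tissues. In micropylar endosperm from 1 h to 7 h, the change of RPS12A minus that of RPS12C was −2.11 (−0.43 against 1.69, adjusted p = 4.93e-11 in the limma test). RPS12A measured 6.34, 6.53, 6.04 and 6.38 at 7 h, against 6.58, 7.15, 6.74 and 6.53 at 1 h, with overlap. In radicle the same difference was −2.26 (adjusted p = 6.18e-12 in the limma test). RPS12C also rose in non-micropylar endosperm, with 6.06, 5.76, 5.98 and 6.21 at 13 h, against 3.91, 4.08, 3.99 and 4.34 at 3 h. RPS12A rose there as well (1.06 ± 0.17), and RPS12A minus RPS12C was −0.86, while RPS9B minus RPS9C (1.76), RPS11A minus RPS11B (0.91) and RPS13-AT3G60770 minus RPS13-AT4G00100 (0.90) were farther apart in the limma test. In cotyledons RPS12C had 6.96, 7.06, 6.02 and 6.53 at 13 h, against 4.69, 5.61, 4.98 and 5.55 at 3 h. In all of these tissues the later arrays of RPS12C lay above the earlier ones.

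RPS6B, unlike RPS6A, measured 11.67, 11.72, 11.45 and 11.64 in micropylar endosperm at 7 h, against 11.85, 11.99, 11.81 and 11.73 at 1 h, and its change of −0.22 did not pass. The difference in change, RPS6A minus RPS6B, was 1.09 in micropylar endosperm and 0.83 in radicle, and 0.56 and 0.59 in these tissues under quantile normalization. RPS9B minus RPS9C was 0.98 in micropylar endosperm, and RPS15A minus RPS15D was −0.97. From ruptured testa to 16 h with intact endosperm the permutation test was at its smallest p for 3 pairs in each tissue. No pair was under 0.05 after adjustment (smallest 0.188 in micropylar endosperm and 0.219 in radicle). With 3 pairs at the smallest p, the adjusted p could not fall under 0.05, so this decides nothing. The limma test passed 3 in micropylar endosperm and 1 in radicle, RPS9B minus RPS9C (0.60). In radicle from 1 h to 7 h RPS2C minus RPS2D was −1.11 and RPS7A minus RPS7B was 1.00. A probe set can bind transcripts of a near-identical copy, and how far that held here was not tested. Probe sets are named by Arabidopsis locus, and whether each measures a separate gene of cress was not tested either.

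**Figure D5:**
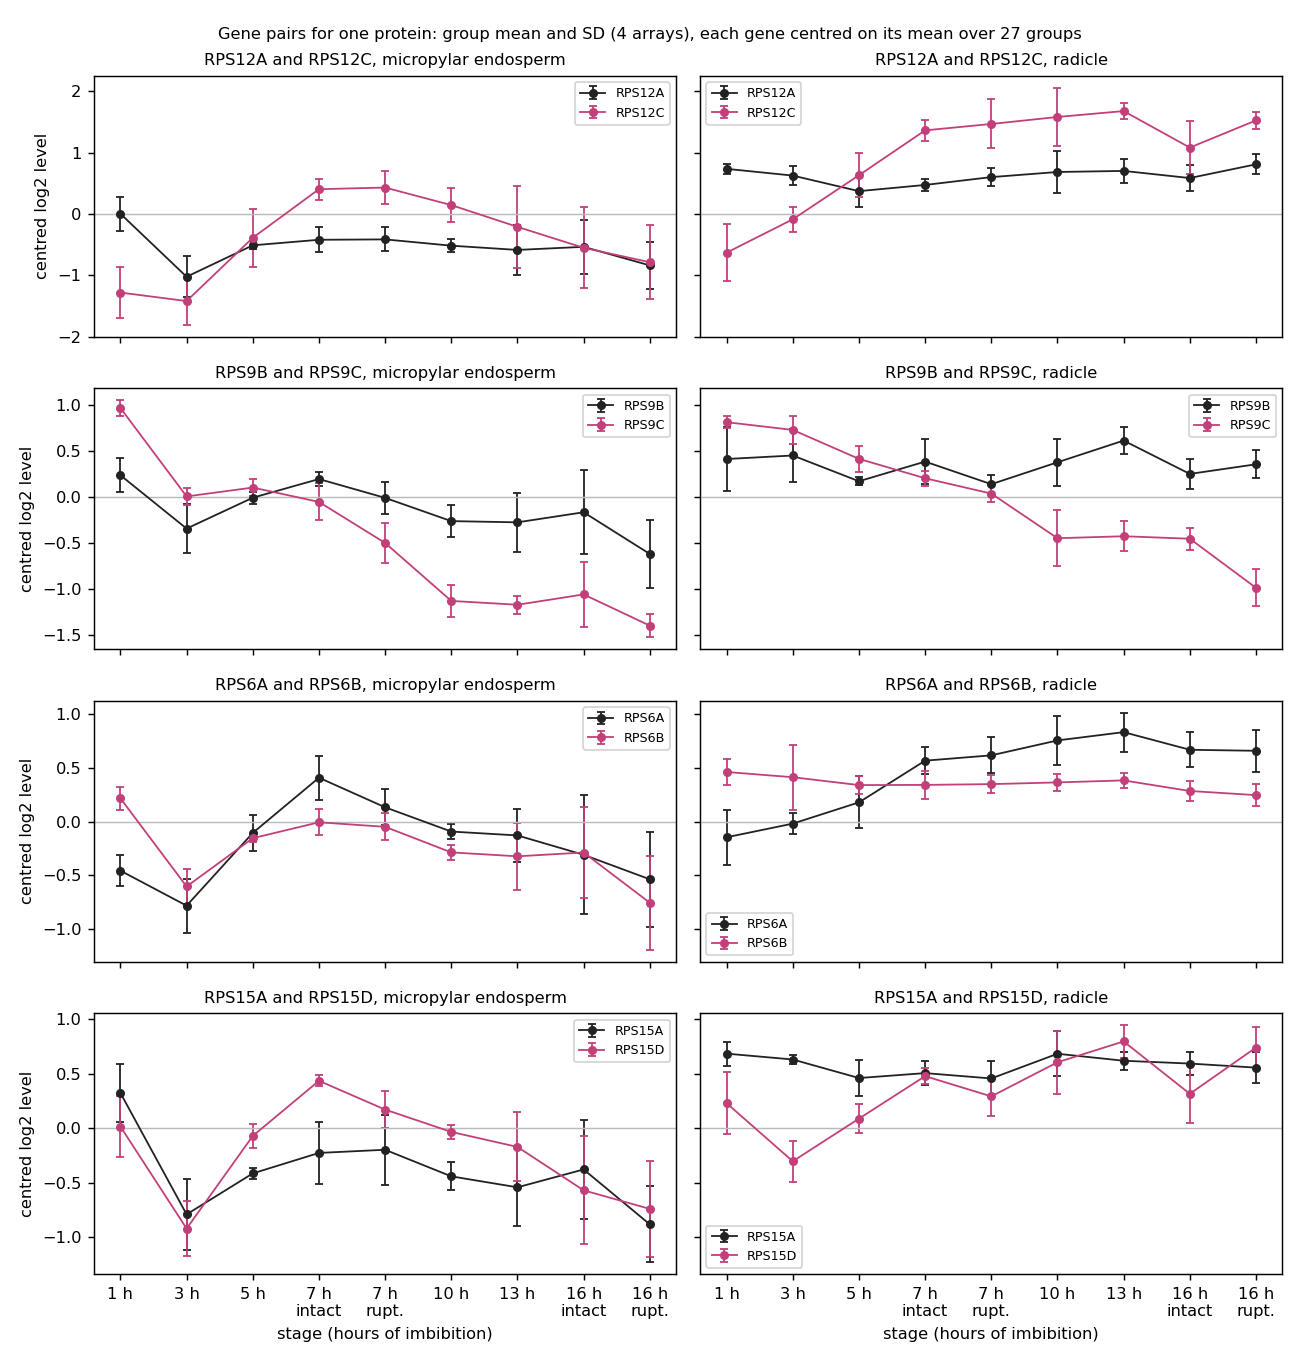
Group mean and SD (4 arrays) of the centred log2 level (vertical axes) over the stages (horizontal axes) for 4 pairs of genes for one protein, in micropylar endosperm (left) and radicle (right). In radicle RPS12C and RPS6A lie below RPS12A and RPS6B at 1 h and above them at 7 h, and RPS9C lies above RPS9B at 1 h and below it at 16 h in both tissues.

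RPS9C (AT5G39850), for a protein of the message entry channel, fell in every tissue that was followed. It measured 8.07, 7.96, 8.26 and 8.03 in micropylar endosperm at 16 h with ruptured endosperm, against 10.57, 10.40, 10.43 and 10.38 at 1 h. In radicle it measured 8.19, 8.55, 8.59 and 8.63 at 16 h with ruptured endosperm, against 10.20, 10.35, 10.30 and 10.32 at 1 h. In cotyledons it measured 9.73, 9.65, 9.49 and 9.96 at 13 h, against 10.25, 10.45, 10.72 and 10.31 at 3 h. The later arrays lay below the earlier arrays in each of these tissues. The fall from 3 h to 13 h was 0.72 ± 0.12 in cotyledons (adjusted p = 1.32e-06) and 0.67 ± 0.12 in non-micropylar endosperm (adjusted p = 2.49e-06). Whole dry seed had its highest mean of any group, 10.6.

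Few small subunit genes passed the threshold at the ruptures. At testa rupture, RPS9C was the gene that passed in micropylar endosperm, lower by 0.45 ± 0.12 in ruptured than in intact seeds (adjusted p = 0.0112), beside 2.69% of all probe sets; the count was 0 without array 1 or 2 of intact seeds or array 4 of ruptured seeds. In radicle the limma test passed 0 genes, beside 1.71% of all probe sets, with 1 at an unadjusted p under 0.05. Array weights, or leaving out array 1 of intact seeds, gave 1. At endosperm rupture, 3 genes were lower in micropylar endosperm of ruptured seeds, beside 0.964% of all probe sets: RPS15A (−0.50 ± 0.15), RPS14B (−0.50 ± 0.14) and RPS6B (−0.47 ± 0.13). RPS6B measured 11.32, 11.15, 10.65 and 10.37 after rupture, against 11.20, 11.41, 10.87 and 11.89 before it, with overlap, and did not pass under quantile normalization (−0.53, adjusted p = 0.0509). This count was 0 without array 2 or 4 of intact seeds or array 3 or 4 of ruptured seeds, and 9 without array 3 of intact seeds. Without array 4 of intact seeds the differences were −0.29 for RPS15A, −0.27 for RPS14B and −0.29 for RPS6B. In the fit of the compared arrays alone no gene passed. In radicle RPS7C was higher after endosperm rupture (0.71 ± 0.23, adjusted p = 0.045) and RPS9C lower (−0.53 ± 0.12, adjusted p = 0.00157), beside 3.57% of all probe sets higher and 1.87% lower. That count was 7 without array 1 of intact seeds and 1 without any other single array. RPS7C did not pass under quantile normalization. More genes had an unadjusted limma p under 0.05 at endosperm rupture: 12 of 33 in micropylar endosperm, all lower, and 8 in radicle, 7 higher and 1 lower. The share of all probe sets at that unadjusted level is not given here.

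Between the ruptures, from 7 h with ruptured testa to 16 h with intact endosperm, 10 genes fell in micropylar endosperm, beside 7.60% of all probe sets, with a median of −0.29. RPS4A (AT2G17360), for a protein of the subunit body, measured 6.98, 6.67, 6.14 and 7.23 at 16 h, against 7.55, 7.64, 7.65 and 7.33 at 7 h, without overlap (−0.79 ± 0.17, adjusted p = 0.000412). RPS12C (−0.98 ± 0.28), RPS14C (−0.77 ± 0.22), RPS15D (−0.74 ± 0.17), RPS2D (−0.62 ± 0.21) and RPS4B (−0.58 ± 0.18) also fell. The groups did not overlap for RPS2D, RPS4A, RPS15D and RPS8A, but the share of all probe sets without overlap is not given here. The arrays at 16 h spread widely, with array medians of the list from −0.85 to 0.09, and the count was 3 without array 3 of 16 h, 17 without array 4 of 16 h, 5 without array 2 of 7 h and 6 without array 3 of 7 h. Without array 3 of 16 h RPS14C (−0.50) and RPS4B (−0.36) did not pass. In the fit of the compared arrays alone 1 gene passed. In radicle RPS13-AT4G00100 rose (0.45 ± 0.14) and RPS9C fell (−0.49 ± 0.12), beside 6.84% of all probe sets higher and 5.02% lower; the count was 1 without array 1 or 4 of 7 h or array 2 or 3 of 16 h. The change was more negative in micropylar endosperm than in radicle for RPS15D (−0.77 ± 0.25, adjusted p = 0.0378) and RPS8A (−0.58 ± 0.17, adjusted p = 0.0223), beside 4.11% of all probe sets. With each array left out in turn that count lay between 0 and 4: it was 0 without array 3 of 7 h or array 3 of 16 h in micropylar endosperm or array 1 of radicle at 16 h, and 4 without array 4 of micropylar endosperm at 16 h. It was 1 without array 1 or 2 of 7 h or array 1 of 16 h in micropylar endosperm, or array 1, 2 or 3 of 7 h or array 4 of 16 h in radicle.

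The remaining steps moved few of the genes. In micropylar endosperm RPS6A rose from 5 h to 7 h with intact testa (0.51 ± 0.16, adjusted p = 0.0277), beside 3.67% of all probe sets; the count was 0 without array 1, 3 or 4 of 5 h or array 1 or 2 of 7 h, and 2 without array 2 of 5 h or array 3 of 7 h. RPS9C fell from 7 h with ruptured testa to 10 h (−0.63 ± 0.12, adjusted p = 0.000217), beside 1.05% of all probe sets, and passed with each array left out in turn. RPS4A (−0.72 ± 0.17) and RPS15D (−0.54 ± 0.17) fell from 10 h to 16 h with intact endosperm, beside 3.25% of all probe sets. The last count was 0 without array 3 of 16 h, 6 without array 4 of 16 h, and 1 without array 1 of 16 h or any 1 array of 10 h, and the change of RPS15D was −0.31 without array 3 of 16 h.

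In radicle RPS7A rose from 5 h to 7 h with intact testa (0.73 ± 0.17, adjusted p = 0.00568), beside 1.23% of all probe sets, and 0 genes passed without array 4 of 5 h. RPS13-AT4G00100 rose (0.51 ± 0.14) and RPS9C fell (−0.48 ± 0.12) from 7 h with ruptured testa to 10 h, beside 2.66% of all probe sets higher and 1.51% lower. That count was 1 without array 1, 3 or 4 of 7 h or array 3 of 10 h. From 10 h to 16 h with intact endosperm the limma test passed 0 genes, beside 0.533% of all probe sets, with 3 at an unadjusted p under 0.05, and 1 passed without array 1 of 16 h. In cotyledons, in steps added after the values had been seen, RPS12C (0.85 ± 0.28) and RPS2D (0.83 ± 0.21) rose from 3 h to 7 h, beside 6.61% of all probe sets, and RPS9C (−0.52 ± 0.12) and RPS6B (−0.38 ± 0.13) fell, beside 6.97%. The count of these was 2 without array 3 of 3 h or array 3 of 7 h. RPS6B did not pass under quantile normalization (−0.28, adjusted p = 0.32). From 7 h to 13 h RPS13-AT3G60770 (0.76 ± 0.17) and RPS12A (0.47 ± 0.17) rose, beside 9.02% of all probe sets. RPS12A did not pass under array weights (0.33, adjusted p = 0.226). The count was 1 without array 1 of 7 h or array 2 of 13 h and 4 without array 4 of 13 h.

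Against the dry part with radicle and cap, 6 of 33 genes were lower in micropylar endosperm at 1 h, beside 3.91% of all probe sets: RPS10A (−0.64 ± 0.18), RPS11A (−0.59 ± 0.17), RPS12A (−0.59 ± 0.17), RPS11C (−0.58 ± 0.15), RPS8B (−0.40 ± 0.12) and RPS11B (−0.37 ± 0.12, with its mean at 1 h under the brightness limit). The count was 2 without array 4 of 1 h. This dry part also mixes tissues, so tissue and the first hour cannot be told apart in these differences. In radicle at 1 h against the same dry part the limma test passed 0 genes, beside 2.94% of all probe sets, with 2 at an unadjusted p under 0.05, and 1 passed without array 2 of the dry part. Between the dry parts, in a comparison added after the values had been seen, RPS11C (0.62 ± 0.16), RPS4D (0.59 ± 0.17) and RPS14B (0.49 ± 0.15) were higher in the part with radicle and cap, beside 4.05% of all probe sets, and 0 passed without array 3 of the part with cotyledon.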

How the data were processed

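RNA of dissected seed tissues was hybridised to 1-colour arrays, 1 sample to an array. The deposited table holds log2 values that the authors computed with RMA (affy), according to the submitters' processing notes; the versions, array type and definition of probe sets are not given in the sources used here. RMA gives the probe intensities of all arrays one distribution, so a change is relative to most other transcripts. It compresses changes of dim probe sets. The summarised values need not share one distribution, and quantile normalization of them moved some bright genes, such as RPS6B. Array medians ran from 4.04 to 4.17, and the number of arrays limits the precision. Probe sets are keyed by Arabidopsis locus. The table holds no gene names, so symbols come from a hand-made list, and the RPS13 genes keep their locus.

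Each group had its own mean in a single linear model of all arrays, fitted with limma 3.58.1 under R 4.3.3. The model had 80 residual degrees of freedom and a prior of 6.04. Adjusted p-values are Benjamini-Hochberg over 13895 probe sets per comparison. The fit was tested on simulated data, in which 200 genes were changed by 0.5 or by 1 on the log2 scale, in alternation. For 3 h against 1 h in micropylar endosperm it recovered 95% of those changed by 1 and 37% of those changed by 0.5. For 13 h against 3 h in non-micropylar endosperm it recovered 89% and 33%. Far fewer probe sets changed in the simulation than in the data, so these shares need not hold for the data. Permutation tests used numpy 2.4.6 and Python 3.11.15.

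Groups come from the sample labels, which do not tell whether replicates were grown separately; the p-values therefore reflect the spread among these samples alone, and that spread may be technical. The members and gene lists were chosen with earlier results of these data known. Genes named were, per comparison, up to 6 with the largest rise and up to 6 with the largest fall among those that passed, and a fixed panel (RPSaA, RPS6A, RPS6B, RPS10B, RPS11A, RPS13-AT4G00100; RPS5A and RPS5B of it were not analysed here). Other named genes (RPS7A, RPS2D, RPS8A, RPS8B, RPS11B and RPS12C from 1 h to 3 h, RPS8A between the ruptures, the gene pairs in non-micropylar endosperm, and single markers) were chosen after their values were seen. For gene pairs, the rule took those at the smallest permutation p, the largest 4 per comparison. Alternatives were moderation with an intensity trend, a filter on dim probe sets, quantile normalization, centring on brighter probe sets, array weights, the replicate number as a block, fits of the compared arrays alone, and leaving out each array of 95 in turn.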

Additional observations from a re-analysis of the deposited data

Results flagged for a closer look

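RPS15A in micropylar endosperm at 3 h had 1 array, replicate 4, at 9.06, while the other 3 lay between 8.36 and 8.47. RPS13-AT3G60770 in non-micropylar endosperm at 3 h had 1 array, replicate 2, at 6.37, while the other 3 lay between 6.90 and 6.97. In both, the gap to the nearest array was a larger share of the whole range than Dixon's test allows at the 95% level, which chance gives in about 1 of 20 groups; these were 2 of 76 groups of 4 arrays looked at.

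The change over time differed between tissues, tested as an interaction in the fit of all arrays. From 1 h to 3 h it differed between micropylar endosperm and radicle for 21 genes, from 3 h to 5 h for 1 (RPS3aA), from 1 h to 7 h with intact testa for 1 (RPS14A), and from ruptured testa to 16 h with intact endosperm for 2 (RPS15D and RPS8A). From 3 h to 13 h it differed between non-micropylar endosperm and cotyledons for 18 genes.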

How the results depend on the processing

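Of 50 comparison counts, 24 stayed within 1.5 times under every alternative that left out no array, and 251 of 316 named values stayed past the threshold in all of them (242 with each of 95 arrays left out in turn). Arrays of micropylar endosperm and radicle at 13 h were not left out. Among the named values that passed, those that changed direction were RPS6B, micropylar endosperm minus radicle, under quantile normalization: 0.11 at 5 h and 0.0080 at 7 h after testa rupture; the cause was not tested. Values near 0 that had not passed also changed sign: RPS6A minus RPS6B in radicle between the ruptures was 0.12, and −0.26 under quantile normalization, and the list's median ran from −0.168 to 0.0798 for cotyledons at 3 h against dry seed and from −0.0616 to 0.0456 for radicle from 1 h to 3 h. No scaling moved the median of all probe sets by over 0.1.

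The fit of all arrays shares one spread per gene over all groups. In micropylar endosperm the SD of the list's array medians was 0.39 at 16 h with intact endosperm and 0.29 with ruptured endosperm. At 7 h with ruptured testa it was 0.13. The standard errors of the shared fit at 16 h may therefore be too small. Fitting only the compared arrays takes the spread from those groups alone, with fewer samples. It gave 3 genes for micropylar endosperm at 1 h against dry seed, 0 for cotyledons at 3 h against dry seed, 0 at testa rupture and 0 at endosperm rupture in micropylar endosperm, 0 at endosperm rupture in radicle, 1 between the ruptures in each of these tissues, and 4 for cotyledons from 3 h to 13 h. It gave 3 for the tissue difference in change from 1 h to 7 h, 0 for that between the ruptures and 0 for that from 3 h to 5 h. For single steps it gave 6 in micropylar endosperm from 5 h to 7 h (main value 1), 0 from 10 h to 16 h (main value 2), and in radicle 0 from 1 h to 3 h, 0 from 3 h to 5 h, 0 from 5 h to 7 h and 0 from 7 h to 10 h. It gave 4 for micropylar endosperm minus radicle at 1 h, 6 for non-micropylar endosperm minus cotyledons at 13 h, 0 for cotyledons from 3 h to 7 h, 8 for non-micropylar endosperm and 1 for cotyledons from 7 h to 13 h, and 1 between the dry parts.

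Array weights gave 1 at testa rupture and 6 at endosperm rupture in radicle, 15 between the endosperm tissues, 3 for the difference in change from 1 h to 7 h and 7 for that from 3 h to 5 h. They gave 8 in micropylar endosperm from 5 h to 7 h and 4 from 7 h to 10 h, 0 in radicle from 1 h to 3 h, 3 for micropylar endosperm minus radicle at 1 h, and 10 for non-micropylar endosperm from 7 h to 13 h. Centring on brighter probe sets gave 3 in micropylar endosperm from 5 h to 7 h and 2 in radicle from 1 h to 3 h. An intensity trend gave 1 for cotyledons from 7 h to 13 h, quantile normalization 1 at endosperm rupture in radicle, and leaving out 748 dim probe sets 2 for the difference in change from 1 h to 7 h and 2 in micropylar endosperm from 5 h to 7 h. For gene pairs in radicle between the ruptures, the limma test gave 1 in place of 3.

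With each array left out in turn, counts ranged 2 to 5 and 0 to 1 for micropylar endosperm and radicle at 1 h against dry seed, and 0 to 1 for cotyledons at 3 h. In micropylar endosperm they ranged 8 to 11 from 1 h to 7 h, 0 to 1 at testa rupture, 3 to 17 between the ruptures, 0 to 9 at endosperm rupture, 5 to 20 from 3 h to 5 h, 0 to 2 from 5 h to 7 h and 0 to 6 from 10 h to 16 h. In radicle they ranged 0 to 1 at testa rupture, 1 to 3 between the ruptures, 1 to 7 at endosperm rupture, 0 to 2 from 1 h to 3 h, 0 to 3 from 3 h to 5 h, 0 to 1 from 5 h to 7 h, 1 to 2 from 7 h to 10 h and 0 to 1 from 10 h to 16 h. They ranged 4 to 10 for cotyledons from 3 h to 13 h, 3 to 9 between the endosperm tissues, and 0 to 3, 0 to 4 and 0 to 2 for the tissue differences in change from 1 h to 7 h, between the ruptures and from 3 h to 5 h. They ranged 2 to 8 for micropylar endosperm minus radicle at 1 h, 6 to 11 for non-micropylar endosperm minus cotyledons at 13 h, 2 to 6 and 1 to 4 for cotyledons from 3 h to 7 h and 7 h to 13 h, 2 to 5 for non-micropylar endosperm from 7 h to 13 h, and 0 to 3 between the dry parts. The fall from 1 h to 3 h in micropylar endosperm ranged 25 to 26, and its difference from radicle 16 to 23.

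Over all pairs of groups, deviations of same-numbered arrays correlated at 0.00156 on average, against −0.000481 for arrays of other numbers. Of all arrays, 27 correlated best with their own number. An average over all groups cannot show whether same-numbered arrays of one stage shared material, and this was not tested. With the replicate block, 2 genes passed in micropylar endosperm from 5 h to 7 h and 2 in radicle from 1 h to 3 h (1 each without it). For gene pairs the smallest permutation p with the block was 0.125. That is the lowest p that 4 paired replicates can give, so no pair could pass and the blocked test decides nothing. Brightness limits what can be read for RPS11B and RPS8B, whose means were under 3.59 in 22 and 4 groups.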
